A study of Danio rerio with 49 samples.

Results

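The genes described here are the zebrafish paralogs of 3 translation factors, the elongation factors eEF1A and eEF2 and the initiation factor subunit eIF3j. They were chosen by name, as every identifier listed as eef1a1l1, eef1a1a, eef1a1b, eef1a2, eef2a.1, eef2a.2, eef2b, eif3ja or eif3jb, ignoring case, and, for a name that is absent, under the name without its final letter. This gave 12 identifiers, of which 9 hold values, among 32520 genes with values in the deposited tables. The eEF1A genes with values were eef1a1l1, eef1a2 and 2 identifiers that share the name EEF1A1, ENSDARG00000039502 and ENSDARG00000069951. The eEF2 genes were eef2a.1, eef2a.2 and eef2b. The eIF3j genes were 2 identifiers named EIF3J, ENSDARG00000012603 and ENSDARG00000053370, and the tables do not say which of these is eif3ja and which is eif3jb.

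eEF1A carries aminoacyl-tRNA to the ribosome, and eEF2 moves the ribosome along the mRNA after each peptide bond. eEF2 carries a modified histidine, diphthamide, made by the DPH enzymes. eIF3j is a loosely held subunit of eIF3, known from yeast and human work to bind the small ribosomal subunit near the mRNA entry channel. A fish embryo first translates with transcripts left by its mother and replaces them with transcripts of its own genome after the mid-blastula transition, so that a paralog can be supplied maternally, zygotically or both ways.

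Poly(A)-enriched RNA libraries came from MZrlig1 and wildtype fish. MZrlig1 embryos carry a mutation of rlig1, which encodes an RNA ligase, and by zebrafish convention MZ marks embryos that lack both the maternal and the zygotic product. Whole embryos were pooled at the 4-cell, sphere, shield and bud stages and at 1 and 5 days post fertilization (dpf), 10 animals a pool up to shield and 8 from bud on. Each genotype had 4 pools at 4-cell, 2 at sphere and 3 at each later stage, and these embryos were raised in darkness. Heads were cut from 5 dpf larvae, raised in a light/dark cycle, that had been sorted as bad or good responders to visual motion, 8 heads a pool. There were 4 pools of bad and 2 of good MZrlig1 responders, and 3 pools of bad and 4 of good wildtype responders. The labels name no allele and do not describe the mutation further, and p-values measure the spread between pools.

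Library totals ran between 12158453 and 18355308 counts. The targeted gene rlig1 had 6 counts over all 24 MZrlig1 libraries, against 19 to 1084 counts in each of the 25 wildtype libraries. The MZrlig1 1 dpf library of replicate a stands apart: it held counts for 7815 genes, where the other 1 dpf libraries held 22619 to 22841, and 49% of its counts fell on ribosomal protein genes, where the others had 7.91% to 10.8%. It was left out of the stage steps, and 1 dpf values are given with and without it. Over 14 retina and brain genes, heads had summed levels of 3913 to 7974 FPKM in MZrlig1 and 4655 to 6928 FPKM in wildtype. Whole 5 dpf larvae overlapped with these, at 4255 to 4604 FPKM in MZrlig1 and 4255 to 4724 FPKM in wildtype. The 2 trunk muscle genes were lower in heads, at 203.9 to 337.4 FPKM in MZrlig1 and 155.8 to 381.8 FPKM in wildtype. Whole larvae had 782.6 to 922.3 FPKM of these in MZrlig1 and 882.5 to 934.9 FPKM in wildtype, which goes with the tissue label. Heads also carried 7 digestive organ genes, at 4400 to 11680 FPKM in MZrlig1 and 1640 to 12360 FPKM in wildtype. Whole 5 dpf larvae had 5312 to 6151 FPKM of these in MZrlig1 and 3019 to 5967 FPKM in wildtype, which goes against the tissue label. None of the 7 was at 0 in heads, and the part of this tissue in the head results was not tested.

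Levels are given as FPKM, which are per transcript length, so genes can be compared within the whole-embryo table and within the head table. Reads of near-identical copies may have been split or shared, which leaves the levels of single eEF1A, eEF2 and EIF3J paralogs uncertain. Fold changes are log2 values from raw counts with their standard error, and a gene is called when its adjusted p is under 0.05 over all genes tested. In pooled embryos, fewer cells of a type and less RNA per cell cannot be told apart, and after poly(A) selection the amount of a transcript and the length of its tail cannot be told apart either.

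eef1a1l1 supplied nearly all eEF1A transcript at every stage. Its level was already high in the 4-cell embryo, at 2399 ± 179.8 FPKM in MZrlig1 and 2459 ± 138 FPKM in wildtype embryos (SD, n = 4 each). At sphere its level was 4459 and 5216 FPKM in MZrlig1 pools, against 3340.3 and 3352 FPKM in wildtype pools. It peaked at bud, at 16482, 19812 and 17556 FPKM in MZrlig1 pools and 16458, 19937 and 18087 FPKM in wildtype pools. The bud ranges of the genotypes overlapped, and every bud pool lay above every shield pool of its genotype. By 5 dpf the level was 7926, 8731 and 8009 FPKM in MZrlig1 larvae and 7925, 8129.5 and 8038 FPKM in wildtype larvae. The share of eef1a1l1 in the summed FPKM of the 4 eEF1A genes was at least 99.98% in each library up to 1 dpf, 99.01% ± 0.071 in MZrlig1 and 99.11% ± 0.0238 in wildtype larvae at 5 dpf (SD, n = 3 each).

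From sphere to shield eef1a1l1 rose 3.83-fold in MZrlig1 embryos (log2 fold change 1.94 ± 0.18, adjusted p = 9.99e-08, edgeR). The same step in wildtype was a 6.07-fold rise (log2 fold change 2.60 ± 0.21, adjusted p = 3.04e-09, edgeR). It fell between bud and 1 dpf by 1.09 ± 0.17 on the log2 scale in MZrlig1 (adjusted p = 4.15e-05) and by 1.26 ± 0.17 in wildtype (adjusted p = 3.30e-06). The step from 4-cell to sphere was called in MZrlig1 (0.77 ± 0.15, adjusted p = 4.45e-04) and not in wildtype (0.009 ± 0.18, adjusted p = 1.00), and the difference between these steps was not tested. The wildtype step depends on scaling: with library totals in place of TMM factors it was 0.44, adjusted p = 0.00205, and the wildtype sphere levels in FPKM, which divide by the total, all lay above the 4-cell levels. From shield to bud it was 0.27 ± 0.15, adjusted p = 0.144 in MZrlig1, and it rose by 0.56 ± 0.17, adjusted p = 0.00892 in wildtype, where without shield replicate c it was 0.47, adjusted p = 0.0585. With library totals this step was called in MZrlig1 (0.45, adjusted p = 0.00192, edgeR). The last step, 1 dpf to 5 dpf, was -0.25 ± 0.16, adjusted p = 0.215 in MZrlig1 and -0.48 ± 0.17, adjusted p = 0.0175 in wildtype. In MZrlig1 it was called without 5 dpf replicate b (-0.45, adjusted p = 0.0197), and in wildtype the call was lost without 1 dpf replicate b (-0.35, adjusted p = 0.097) or 5 dpf replicate b (-0.46, adjusted p = 0.0545).

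The other 3 eEF1A genes described here were low up to 1 dpf and higher at 5 dpf. A further gene, eef1a1l3, outside the names used here, had a mean of 2.33 FPKM in MZrlig1 and 1.63 FPKM in wildtype at 4-cell. At shield its mean was 2.03 FPKM in MZrlig1 and 1.51 FPKM in wildtype, and at bud 0.0434 and 0.0732 FPKM. It is not counted in the eEF1A shares. Up to bud, EEF1A1 ENSDARG00000039502 had at most 17 counts in any library, EEF1A1 ENSDARG00000069951 at most 7 and eef1a2, known in mammals as the form used in neurons and muscle, at most 12. At 5 dpf EEF1A1 ENSDARG00000039502 stood at 69.3, 67.1 and 62.7 FPKM in MZrlig1 larvae and 54.8, 57.3 and 59.8 FPKM in wildtype larvae. At 1 dpf it had been at 1.19 and 1.09 FPKM in MZrlig1 without replicate a, which had no count, and 0.544, 1.35 and 0.564 FPKM in wildtype. Every 5 dpf pool was thus far above every 1 dpf pool in both genotypes. The rise was 5.99 ± 0.41, adjusted p = 5.73e-09 in MZrlig1 and 6.04 ± 0.64, adjusted p = 5.59e-07 in wildtype on the log2 scale.

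EEF1A1 ENSDARG00000069951 had 14.9, 14.5 and 13.2 FPKM at 5 dpf in MZrlig1 larvae and 13.7, 13.6 and 12.9 FPKM in wildtype larvae, after 0 to 5 counts a library at 1 dpf. Its rise was 6.79 ± 0.68, adjusted p = 3.36e-07 in MZrlig1 and 6.26 ± 0.66, adjusted p = 1.91e-07 in wildtype. eef1a2 reached 1.55, 1.03 and 1.77 FPKM at 5 dpf in MZrlig1 larvae and 1.17, 0.708 and 1.4 FPKM in wildtype larvae, the lowest of the 4. The MZrlig1 1 dpf libraries without replicate a held 3 eef1a2 counts together, and the 5 dpf libraries 107, a ratio of 23.7 per total count (exact 95% interval 7.89 to 117, counting error only). In wildtype no 1 dpf library held a count and the 5 dpf libraries held 79, at least 26.7-fold higher when set against 3 counts over the group. This step of eef1a2 was called in both genotypes (adjusted p = 0.00107 in MZrlig1 and 1.69e-05 in wildtype). Taking the 5 dpf levels in order, eef1a1l1 lay above EEF1A1 ENSDARG00000039502, that above EEF1A1 ENSDARG00000069951 and that above eef1a2, and no ranges of neighbours in this order overlapped.

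Other calls of these genes came from few counts. From bud to 1 dpf EEF1A1 ENSDARG00000039502 rose in MZrlig1 by 2.92 ± 0.49, adjusted p = 8.78e-05 on the log2 scale, with 2, 2 and 5 counts in the bud pools and 25 and 26 in the 1 dpf pools. This call held under 11 of 12 alternatives and was lost with 1 dpf replicate a included (2.39, adjusted p = 0.0707). In wildtype the step was not called (0.88 ± 0.76, adjusted p = 0.335), with 24 counts over the bud pools and 57 over the 1 dpf pools, and the difference between the genotypes' steps was not tested. The wildtype sphere to shield call of EEF1A1 ENSDARG00000039502 (adjusted p = 0.0319) came from 17 counts in wildtype shield replicate c alone, and without that library both stages were at 0 and the fold change was 0. That library also had the highest summed head markers of its group, 48.9 FPKM where the lowest had 4.57, and the highest summed digestive markers, 106.6 FPKM where the lowest had 3.03. The MZrlig1 shield to bud call of the same gene compared 9 counts with 1, a ratio of 8.22 (exact 95% interval 1.14 to 360.4). Its call was lost without shield replicate b (2.02, adjusted p = 0.151) or c (1.89, adjusted p = 0.189), and without bud replicate a (2.69, adjusted p = 0.0525) or c (2.04, adjusted p = 0.187). eef1a2 in wildtype had 2 counts at 4-cell, 18 at sphere and 2 at shield, and both steps were called. Sphere over 4-cell was a ratio of 17.9 (exact 95% interval 4.29 to 159), and the call was lost without sphere replicate d (2.90, adjusted p = 0.0878). Shield over sphere was 0.0723 (exact 95% interval 0.00814 to 0.302), and was lost without sphere replicate d (-2.38, adjusted p = 0.14), shield replicate a (-2.46, adjusted p = 0.0639) or shield replicate b (-2.32, adjusted p = 0.0787).

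**Figure D1:**
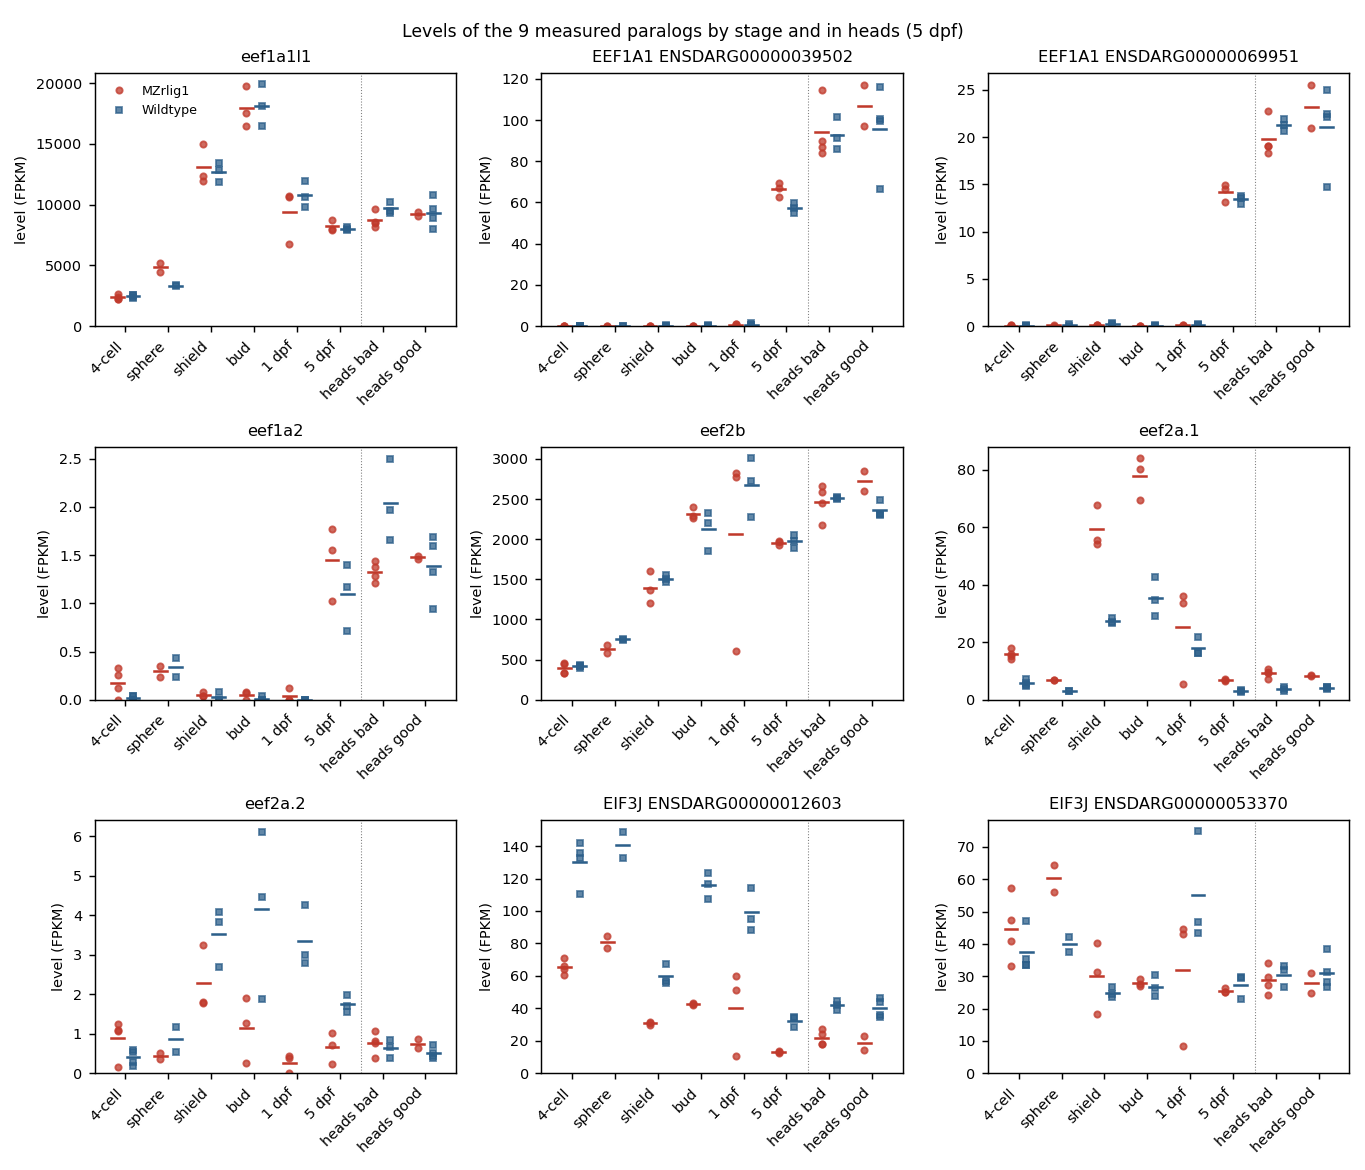
Level (FPKM, linear axes that start at 0 and differ between panels) of the 9 genes in each whole-embryo pool by stage and in each pool of 5 dpf heads, right of the dotted line. Points are libraries, circles MZrlig1 and squares wildtype, and lines are group means. eef1a1l1 and eef2b are present from 4-cell on, both EEF1A1 genes and eef1a2 are higher at 5 dpf than at the earlier stages, and MZrlig1 pools lie above wildtype for eef2a.1 and below for EIF3J ENSDARG00000012603 (MZrlig1 1 dpf replicate a is the low point at 1 dpf).

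eef2b was the main eEF2 transcript at every stage, and eef2a.1 and its neighbour eef2a.2 were minor. At 4-cell eef2b had 337, 461, 443 and 339 FPKM in MZrlig1 pools and 395, 438, 415 and 421 FPKM in wildtype pools. At 1 dpf, its highest stage mean in wildtype and, without replicate a, in MZrlig1, it had 608, 2776 and 2821 FPKM in MZrlig1, where the low value is replicate a, and 2729.9, 3017 and 2279 FPKM in wildtype. Without replicate a the genotypes overlapped there, as at 4-cell. From sphere to shield eef2b rose 3.08-fold in MZrlig1 (1.62 ± 0.18, adjusted p = 9.83e-07) and 3.2-fold in wildtype (1.68 ± 0.17, adjusted p = 8.04e-08).

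Other steps of eef2b were smaller. From shield to bud it rose by 0.56 ± 0.15, adjusted p = 0.0065 in MZrlig1 and 0.52 ± 0.14, adjusted p = 0.00551 in wildtype. The MZrlig1 call was lost without shield replicate b (0.38, adjusted p = 0.107) or c (0.41, adjusted p = 0.0863). From 4-cell to sphere the rise was 0.44 ± 0.16, adjusted p = 0.0371 in MZrlig1 and 0.42 ± 0.15, adjusted p = 0.0315 in wildtype. These calls were weak: the MZrlig1 one was lost without 4-cell replicate f (0.35, adjusted p = 0.093) or sphere replicate f (0.45, adjusted p = 0.104). The wildtype one was lost without 4-cell replicate a, b or c (adjusted p = 0.0649, 0.0623 and 0.0536) and without sphere replicate d or f (adjusted p = 0.128 and 0.143), at log2 fold changes of 0.39 to 0.43. From bud to 1 dpf eef2b was not called, at -0.062 ± 0.17, adjusted p = 0.792 in MZrlig1 and -0.15 ± 0.14, adjusted p = 0.373 in wildtype, and the wildtype sign turns with library totals (0.33, adjusted p = 0.0173). From 1 dpf to 5 dpf it was -0.39 ± 0.17, adjusted p = 0.0614 in MZrlig1 and -0.50 ± 0.14, adjusted p = 0.0055 in wildtype, and in MZrlig1 it was called without 5 dpf replicate b (-0.53, adjusted p = 0.0179).

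eef2a.1 fell, rose and fell again over the stages. It fell from 4-cell to sphere by 1.47 ± 0.18 on the log2 scale in MZrlig1 (adjusted p = 2.34e-06) and by 1.38 ± 0.19 in wildtype (adjusted p = 8.46e-06). It then rose 12.3-fold to shield in MZrlig1 (3.62 ± 0.20, adjusted p = 1.63e-09) and 14.5-fold in wildtype (3.86 ± 0.22, adjusted p = 4.01e-11). Its bud level was its highest, and the shield to bud step was not called in either genotype (0.20 ± 0.15, adjusted p = 0.31 in MZrlig1 and 0.38 ± 0.16, adjusted p = 0.0632 in wildtype). With library totals this step was called in MZrlig1 (0.39, adjusted p = 0.0282, edgeR). After bud eef2a.1 fell by 1.48 to 1 dpf and fell by 2.22 more to 5 dpf in MZrlig1 (adjusted p = 3.02e-06 and 2.13e-08). In wildtype these falls were log2 fold changes of -1.45 and -2.67 (adjusted p = 4.65e-07 and 6.32e-10). The 4 called steps of eef2a.1 were called under every alternative run in both genotypes, the libraries left out one at a time included.

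eef2a.2 had at most 6.1 FPKM in any library. It rose from sphere to shield by 2.85 ± 0.78, adjusted p = 0.00503 in MZrlig1 and 2.7 ± 0.47, adjusted p = 6.48e-05 in wildtype. In MZrlig1 this call was lost without sphere replicate e (2.60, adjusted p = 0.0588). From 1 dpf to 5 dpf it was 0.76 ± 0.77, adjusted p = 0.435 in MZrlig1. In wildtype it fell over this step by 0.97 (adjusted p = 0.0317), a call lost without 1 dpf replicate c (-0.81, adjusted p = 0.109) and without 5 dpf replicate a, b or c (adjusted p = 0.0905, 0.0588 and 0.0778). The difference between the genotypes' steps was not tested. From bud to 1 dpf eef2a.2 was not called (-1.79 ± 0.77, adjusted p = 0.0615 in MZrlig1 and -0.76 ± 0.37, adjusted p = 0.0808 in wildtype), and was called without bud replicate b, at -2.16, adjusted p = 0.0216 in MZrlig1 and -1.05, adjusted p = 0.0102 in wildtype. A further gene listed as EEF2, outside the names used here, had 252 to 279 FPKM at 5 dpf in MZrlig1 and 250 to 270.2 FPKM in wildtype, and is not counted in the eEF2 shares below.

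Both EIF3J genes were present from the 4-cell embryo on. The level of EIF3J ENSDARG00000012603 over that of EIF3J ENSDARG00000053370, a ratio of FPKM, averaged 1.52 at 4-cell in MZrlig1 and 3.59 in wildtype (4 pools each). At bud it averaged 1.54 in MZrlig1 and 4.34 in wildtype, and at 5 dpf 0.509 in MZrlig1 and 1.19 in wildtype (3 pools each). The order of the pair at 5 dpf was thus turned round in MZrlig1, while ENSDARG00000012603 was the higher one in each wildtype pool of every stage. The MZrlig1 ratio also went under 1 at shield, where it ran from 0.744 to 1.71 over 3 pools. In MZrlig1 heads it ran from 0.579 to 0.731 in good and from 0.661 to 0.818 in bad responders.

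EIF3J ENSDARG00000012603 was lowest at shield among the stages up to bud. Its step from 4-cell to sphere was 0.059 ± 0.16, adjusted p = 0.873 in MZrlig1 and -0.32 ± 0.17, adjusted p = 0.161 in wildtype. It fell from sphere to shield by 0.89 ± 0.17 in MZrlig1 (adjusted p = 2.69e-04) and by 0.56 ± 0.18 in wildtype (adjusted p = 0.013). The wildtype call was lost without sphere replicate d (-0.47, adjusted p = 0.112) or shield replicate c (-0.48, adjusted p = 0.0549). From shield to bud it was 0.29 ± 0.16, adjusted p = 0.148 in MZrlig1, and it rose by 0.99 ± 0.16, adjusted p = 5.02e-05 in wildtype. With library totals this step was called in MZrlig1 (0.47, adjusted p = 0.00963, edgeR). From bud to 1 dpf the gene was at 0.044 ± 0.17, adjusted p = 0.857 in MZrlig1, where library totals gave 0.37, adjusted p = 0.0495. In wildtype it fell by 0.74 (adjusted p = 6.31e-04), where library totals gave -0.23, adjusted p = 0.157. Whether the genotypes differ in these steps was not tested. From 1 dpf to 5 dpf it fell by 1.97 in MZrlig1 (adjusted p = 7.89e-08) and by 1.65 in wildtype (adjusted p = 1.07e-07), calls kept under every alternative run.

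EIF3J ENSDARG00000053370 had a mean level of 60.3 FPKM at sphere and 29.9 FPKM at shield in MZrlig1, and of 39.9 FPKM at sphere and 24.9 FPKM at shield in wildtype. With TMM factors this step was not called (-0.51 ± 0.26, adjusted p = 0.113 in MZrlig1 and -0.004 ± 0.24, adjusted p = 1.00 in wildtype). With library totals it was called in both genotypes, at -1.01, adjusted p = 0.00332 in MZrlig1 and -0.68, adjusted p = 0.0123 in wildtype. The gene fell from 1 dpf to 5 dpf by 0.65 in MZrlig1 (adjusted p = 0.043) and by 1.03 in wildtype (adjusted p = 3.38e-04). The MZrlig1 call was lost without 1 dpf replicate b or c (adjusted p = 0.131 and 0.148) and without 5 dpf replicate a or c (adjusted p = 0.114 and 0.0774). From bud to 1 dpf it was 0.32 ± 0.26, adjusted p = 0.327 in MZrlig1. Its wildtype rise over this step (0.50 ± 0.21, adjusted p = 0.0476) was lost without bud replicate a (0.34, adjusted p = 0.191), bud replicate c (0.45, adjusted p = 0.127) or 1 dpf replicate c (0.27, adjusted p = 0.304). Leaving out MZrlig1 shield replicate a or b added calls at the steps into and out of shield (-0.59, adjusted p = 0.0286 from shield to bud, and -0.77, adjusted p = 0.0157 from sphere to shield).

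The size of the steps also depended on how libraries were scaled. With library totals the wildtype step from sphere to shield was 1.93 for eef1a1l1, 1.00 for eef2b, 3.19 for eef2a.1, 2.03 for eef2a.2 and -1.23 for EIF3J ENSDARG00000012603 on the log2 scale. Each of these kept its direction and its call, and the values differ from those with TMM factors by more than 1.5 times in fold. Library totals moved the median of all genes by -0.51 in that step. With DESeq2 size factors the last wildtype step was -0.21, adjusted p = 0.292 for eef1a1l1, -0.22, adjusted p = 0.167 for eef2b and -0.70, adjusted p = 0.118 for eef2a.2. With the same factors EIF3J ENSDARG00000053370 was at -0.48, adjusted p = 0.121 in that step in MZrlig1, and EIF3J ENSDARG00000012603 at -0.39, adjusted p = 0.0705 from sphere to shield in wildtype. Over all genes these factors moved the median log2 fold change by 0.26 in the last wildtype step and 0.17 in the last MZrlig1 step.

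**Figure D2:**
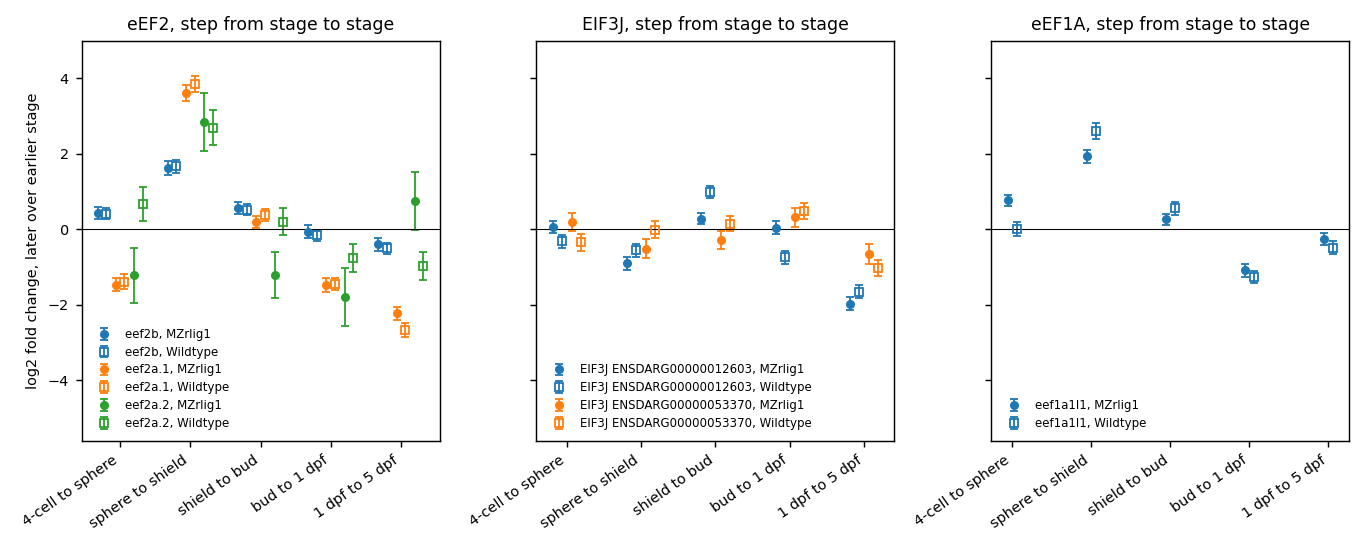
Log2 fold change of each step, later over earlier stage, for the eEF2 genes, both EIF3J genes and eef1a1l1, with bars of 1 standard error from the edgeR fit. Filled circles are MZrlig1 (without 1 dpf replicate a) and open squares wildtype. eef2a.1 goes down, up by 3.62 in MZrlig1 and 3.86 in wildtype at sphere to shield, and down again from bud on in both genotypes.

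Counted over the 9 members, the steps compare as follows with all genes tested. From 4-cell to sphere in MZrlig1 3 members were called, 2 higher and 1 lower, where 37.5% of all genes were, 22.5% higher and 15.1% lower. In wildtype 3 members were called, 2 higher and 1 lower, where 41.0% of all genes were, 23.7% higher and 17.3% lower. From sphere to shield in MZrlig1 5 members were called, 4 higher and 1 lower, where 49.9% of all genes were, 27.3% higher and 22.6% lower. In wildtype 7 members were called, 5 higher and 2 lower, where 56.9% of all genes were, 32.1% higher and 24.7% lower. The direction of eef2a.1, eef2a.2, eef2b and eef1a1l1, all up, was the same in both genotypes at this step. From shield to bud in MZrlig1 2 members were called, 2 higher and 0 lower, where 43.1% of all genes were, 23.4% higher and 19.7% lower. In wildtype 3 members were called, 3 higher and 0 lower, where 48.7% of all genes were, 27.4% higher and 21.2% lower. From bud to 1 dpf in MZrlig1 3 members were called, 1 higher and 2 lower, where 49.3% of all genes were, 27.3% higher and 22.0% lower. In wildtype 4 members were called, 1 higher and 3 lower, where 60.8% of all genes were, 32.5% higher and 28.2% lower. Both falls shared by the genotypes there were eef1a1l1 and eef2a.1. From 1 dpf to 5 dpf in MZrlig1 6 members were called, 3 higher and 3 lower, where 52.1% of all genes were, 29.4% higher and 22.6% lower. In wildtype 9 members were called, 3 higher and 6 lower, where 62.2% of all genes were, 32.4% higher and 29.9% lower. As a share of 9, these edgeR counts lie under or near the background at most steps. They lie above it in wildtype from sphere to shield and in both genotypes from 1 dpf to 5 dpf. DESeq2 called 5 of 9 in wildtype from sphere to shield, beside 13413 of 22475 genes. In the last step it called 6 of 9 in wildtype, beside 13527 of 22475 genes, and 5 of 9 in MZrlig1, beside 11542 of 22313. These DESeq2 counts lie under or near the background. The wildtype count was 1 from 4-cell to sphere without sphere replicate d, and 4 from sphere to shield without the same library. The MZrlig1 count from shield to bud was 0 without shield replicate b or c and 1 without bud replicate a or c. The share of all genes called without these libraries is not given here.

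Differences between the genotypes in whole embryos were in view when these genes were chosen, so their values there are a description and carry no test. The mean level of eef2a.1 was higher in MZrlig1 at every stage. At 4-cell it had 16, 15.3, 14.3 and 18.1 FPKM in MZrlig1 pools, against 4.82, 5.26, 5.87 and 7.33 FPKM in wildtype pools. At shield it had 55.6, 67.8 and 54.3 FPKM in MZrlig1 pools and 26.7, 28.4 and 27.2 FPKM in wildtype pools. The lowest MZrlig1 pool was above the highest wildtype pool at both stages. At bud the levels were 83.9, 69.3 and 80.3 FPKM in MZrlig1 and 42.5, 29 and 34.5 FPKM in wildtype, and at 5 dpf 6.64, 7.05 and 6.98 FPKM in MZrlig1 and 3.32, 2.56 and 2.89 FPKM in wildtype. These groups did not overlap either, nor did those at sphere, at 6.82 and 6.84 FPKM in MZrlig1 and 3.13 and 2.89 FPKM in wildtype. At 1 dpf the MZrlig1 values were 5.49, 33.8 and 36.2 FPKM, the low one replicate a, and the wildtype values 16.1, 16.4 and 21.9 FPKM, and the groups do not overlap once replicate a is left out.

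The log2 fold change of eef2a.1, MZrlig1 over wildtype, was 1.46 in 4-cell embryos and 1.36 in sphere embryos. Later it was 1.15 at shield, 1.05 in bud embryos and 1.31 at 5 dpf. At 1 dpf it was 0.68 with and 0.97 without replicate a. The neighbouring eef2a.2 had a higher mean in MZrlig1 at 4-cell and a lower mean at every later stage. Its pools overlapped between the genotypes at 4-cell, shield and bud. Its log2 fold change was 1.14 in 4-cell and -0.77 in sphere embryos, -0.59 at shield, -1.93 in bud embryos and -1.37 at 5 dpf, with standard errors of 0.32 to 0.65. Its 5 dpf pools had 1.03, 0.232 and 0.712 FPKM in MZrlig1 and 1.56, 1.98 and 1.71 FPKM in wildtype, without overlap. At 1 dpf it had 0, 0.43 and 0.386 FPKM in MZrlig1, the 0 being replicate a, and 2.99, 2.78 and 4.27 FPKM in wildtype. Without replicate a its 1 dpf log2 fold change was -3.00.

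EIF3J ENSDARG00000012603 was lower in MZrlig1 at every stage. At 4-cell it had 66.1, 64.4, 60.8 and 71.3 FPKM in MZrlig1 pools, against 136, 142, 132 and 110.3 FPKM in wildtype pools. The bud levels were 43.2, 42.9 and 42.3 FPKM in MZrlig1 pools and 108, 123 and 117 FPKM in wildtype pools. MZrlig1 bud pools were close to each other and all under the wildtype pools, and the 4-cell groups were as clearly apart. At 5 dpf the levels were 12.2, 13.5 and 13.3 FPKM in MZrlig1 and 33.8, 28.7 and 34.7 FPKM in wildtype. On the log2 scale the difference was -0.97 in 4-cell embryos, -0.62 in sphere embryos, -0.92 at shield, -1.55 in bud embryos, -1.05 at 1 dpf (-0.82 without replicate a) and -1.25 at 5 dpf. In no stage did a MZrlig1 pool reach the lowest wildtype pool.

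The second EIF3J gene did not share this difference. EIF3J ENSDARG00000053370 had 40.8, 33.2, 47.4 and 57.3 FPKM at 4-cell in MZrlig1 and 33.4, 35.5, 33.4 and 47.2 FPKM in wildtype, with overlap. At sphere it had 64.3 and 56.2 FPKM in MZrlig1 and 42.2 and 37.5 FPKM in wildtype, without overlap, a log2 fold change of 0.78. At 5 dpf its groups overlapped again, at 25, 26.4 and 25.2 FPKM in MZrlig1 and 29.4, 23 and 29.9 FPKM in wildtype. At sphere eef1a1l1 was higher in MZrlig1 by 0.71 on the log2 scale, and its fold changes in the other stages except 1 dpf lay between -0.13 and 0.11. eef2b lay between -0.088 and 0.056 at the stages other than 1 dpf, where it was -0.12 with replicate a. At 1 dpf the ratio of mean FPKM of eef2b, MZrlig1 over wildtype, was 0.773 with replicate a and 1.05 without it. The same ratios were 0.869 and 0.990 for eef1a1l1, and 0.583 and 0.797 for EIF3J ENSDARG00000053370. Sphere has 2 pools of each genotype, and there the largest share of all genes was called.

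**Figure D3:**
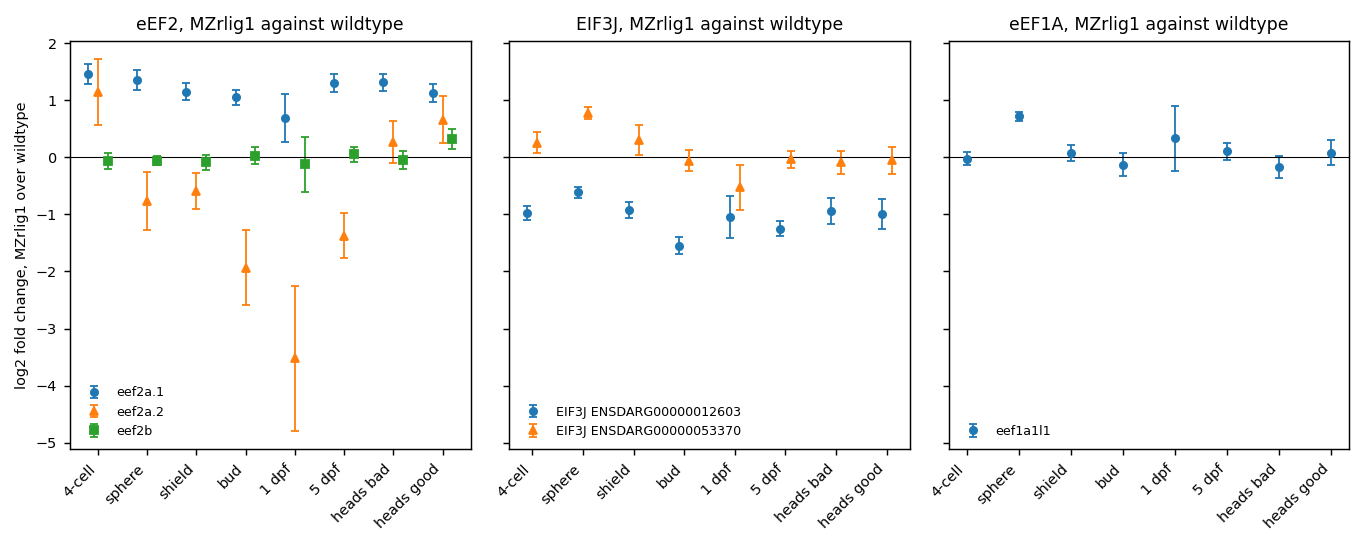
Log2 fold change, MZrlig1 over wildtype, at each stage and in heads of bad and good responders, with bars of 1 standard error from the edgeR fits. Whole-embryo values are a description, and the 1 dpf fit holds MZrlig1 replicate a. eef2a.1 lies between 0.68 and 1.46 and EIF3J ENSDARG00000012603 between -1.55 and -0.62 throughout, and eef2b lies between -0.12 and 0.32.

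With this fit, 2 of 6 members tested were called at 4-cell, where 3.16% of all genes were called, 4 of 6 at sphere (36.0%), 2 of 6 at shield (3.84%), 2 of 6 at bud (0.814%), 0 of 7 at 1 dpf (0.00%) and 2 of 9 at 5 dpf (1.02%). The other members did not pass the filter on low counts at those stages. Wherever 2 were called they were eef2a.1 and EIF3J ENSDARG00000012603, and these counts are part of what chose the genes. At 1 dpf, where edgeR called 0 members, 2 had an unadjusted p under 0.05 and DESeq2 called 0, beside 123 and 7 of 18261 genes. Without replicate a edgeR called 3 members: eef2a.1, higher in MZrlig1, and eef2a.2 and EIF3J ENSDARG00000012603, both lower. The 0.00% of all genes belongs to the fit with replicate a. At bud the count was 0 without wildtype replicate c or any 1 MZrlig1 replicate, and it was 1 at shield without any 1 wildtype replicate and 1 at 5 dpf without wildtype replicate c. The share of all genes called in fits that leave out a library, 1 dpf included, is not given here.

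Heads are separate animals, raised under another light regime, though earlier results of the whole series, heads included, were known when the genes were chosen. The p-values in heads are therefore not an independent test of these genes. eef2a.1 was higher in MZrlig1 heads. Heads of bad responders had 10.8, 7.36, 9.25 and 9.6 FPKM in MZrlig1 and 3.14, 4.33 and 3.59 FPKM in wildtype. Heads of good responders had 8.11 and 8.57 FPKM in MZrlig1 and 4.58, 3.65, 4.01 and 4.26 FPKM in wildtype. All 6 MZrlig1 pools lay above all 7 wildtype pools. The difference averaged over the behaviour classes was 2.33-fold (log2 fold change 1.22 ± 0.11, adjusted p = 3.39e-05, edgeR), and this call held under all 18 alternatives run. Within bad responders it was 1.31 ± 0.15, adjusted p = 6.64e-04, and within good responders 1.13 ± 0.16, adjusted p = 0.00423. The call in good responders was lost without MZrlig1 replicate 3, which leaves 1 MZrlig1 pool (1.02, adjusted p = 0.0992), and with only the groups compared in the fit (1.15, adjusted p = 0.121).

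EIF3J ENSDARG00000012603 was lower in MZrlig1 heads. Bad responders had 24.4, 27.2, 18.1 and 18.2 FPKM in MZrlig1 and 42.1, 38.7 and 44.5 FPKM in wildtype. Good responders had 14.4 and 22.7 FPKM in MZrlig1 and 35.7, 46.2, 34.5 and 44 FPKM in wildtype. No MZrlig1 pool reached the lowest wildtype pool. The averaged difference was a log2 fold change of -0.97 ± 0.18, adjusted p = 0.00709 (edgeR). It was not called within either class alone, at -0.94 ± 0.22, adjusted p = 0.0769 in bad and -0.997 ± 0.27, adjusted p = 0.136 in good responders. In bad responders it was called without MZrlig1 replicate 2 (-1.10, adjusted p = 0.0456), the highest MZrlig1 pool of that class.

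The other 7 members were not called in heads. Their averaged log2 fold changes ran from -0.22 for eef1a2 to 0.46 for eef2a.2, with -0.044 ± 0.15 for eef1a1l1, 0.14 ± 0.12 for eef2b and -0.073 ± 0.16 for EIF3J ENSDARG00000053370. The head levels of eef2b were 2450.2, 2173, 2658 and 2592 FPKM in bad and 2599.7 and 2845 FPKM in good MZrlig1 responders, against 2529, 2509 and 2498 FPKM in bad and 2493, 2319, 2300.4 and 2319 FPKM in good wildtype responders. EEF1A1 ENSDARG00000039502 had 87.1, 115, 89.8 and 84.2 FPKM in bad and 97 and 117 FPKM in good MZrlig1 responders, against 86, 91.3 and 101 FPKM in bad and 66.6, 99.4, 100.3 and 116 FPKM in good wildtype responders. Both genes overlapped between the genotypes over the head pools as a whole. Among bad responders eef1a2 had 1.38, 1.21, 1.28 and 1.44 FPKM in MZrlig1 and 1.65, 2.5 and 1.97 FPKM in wildtype, without overlap but uncalled (-0.63 ± 0.27, adjusted p = 0.637). In heads 2 of 9 members were called in the averaged comparison, where 2.73% of all genes were, 1 of 9 in bad responders (0.983%) and 1 of 9 in good responders (0.708%). DESeq2 called 2 members in each of these 3 comparisons. Of 21464 genes it called 958 in the averaged comparison, 398 in bad and 455 in good responders.

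No member differed detectably between the behaviour classes. edgeR called 0 of 9 members between bad and good responders in MZrlig1 heads (0.00466% of all genes) and 0 of 9 in wildtype heads (0.00%), and 0 of 9 for the interaction of genotype and behaviour (0.00%). In each of the 3 comparisons 0 members had an unadjusted p under 0.05, and DESeq2 called 0. Of 21464 genes, 1135 had an unadjusted p under 0.05 between the classes in MZrlig1, 167 in wildtype and 818 for the interaction. DESeq2 called 5, 0 and 0 of all genes there. For eef2a.1 the bad minus good difference was 0.016 ± 0.17 in MZrlig1 and -0.17 ± 0.15 in wildtype on the log2 scale. For EIF3J ENSDARG00000012603 it was 0.11 ± 0.26 in MZrlig1 and 0.048 ± 0.22 in wildtype. The interaction of eef2a.1 was 0.18 ± 0.22, with a 95% interval of -0.26 to 0.63, and that of EIF3J ENSDARG00000012603 0.060 ± 0.34, with a 95% interval of -0.61 to 0.73.

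The share of each paralog in its family's summed FPKM is a measure within a library and does not depend on its total. The shares to test in heads were also chosen with earlier results of these data known, and they come from the head levels given above. Their p-values are therefore not an independent test either. EIF3J ENSDARG00000012603 made up 45, 44.3, 39.8 and 43.1% in heads of bad and 36.7 and 42.2% in heads of good MZrlig1 responders. In wildtype it made up 56, 59.3 and 58.3% in bad and 57.2, 54.6, 55 and 58.5% in good responders. All MZrlig1 shares were under all wildtype shares. The mean was 41.9% ± 3.12 in 6 MZrlig1 pools and 57% ± 1.83 in 7 wildtype pools (SD), a difference of -15.1 points (two-sided exact permutation within behaviour class, p = 0.0019, the smallest that 525 permutations allow, 0.00286 after Benjamini-Hochberg adjustment over 3 shares).

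For eef2a.1 the share was 0.35% ± 0.0493 in MZrlig1 heads and 0.162% ± 0.0223 in wildtype heads (SD, n = 6 and 7), a difference of 0.188 points with the same exact p. MZrlig1 pools ran from 0.3% to 0.437% and wildtype pools from 0.124% to 0.183%. The eef1a1l1 share was 98.7% ± 0.171 in MZrlig1 heads and 98.8% ± 0.26 in wildtype heads, a difference of -0.105 points (exact p = 0.406). Leaving out each head pool in turn moved the 3 differences to between -15.8 and -14.1 points for EIF3J ENSDARG00000012603, 0.17 and 0.198 points for eef2a.1 and -0.162 and -0.0403 points for eef1a1l1.

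**Figure D4:**
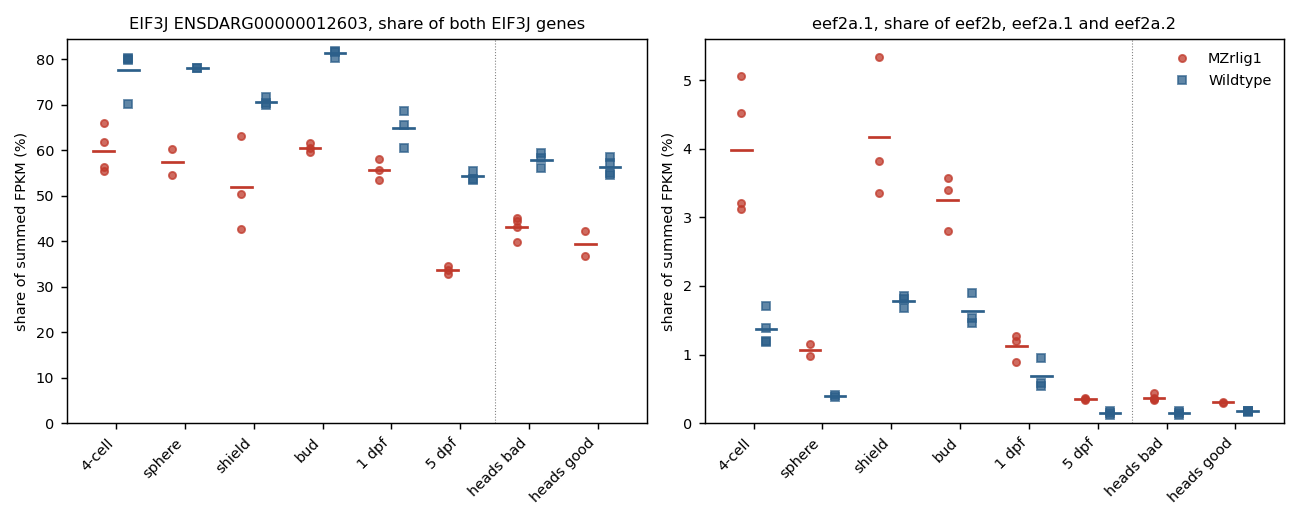
Share (%) of EIF3J ENSDARG00000012603 in the summed FPKM of both EIF3J genes, and of eef2a.1 in that of eef2b, eef2a.1 and eef2a.2, in each library by stage and in heads. Circles are MZrlig1, squares wildtype and lines group means. The MZrlig1 share of EIF3J ENSDARG00000012603 is 33.7% at 5 dpf, against 54.2% in wildtype (means of 3 pools), and eef2a.1 makes up at most 5.33% of its family.

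In whole embryos the share of EIF3J ENSDARG00000012603 was 59.9% ± 4.99 in MZrlig1 and 77.5% ± 5.00 in wildtype at 4-cell (SD, n = 4 each), 60.5% ± 1.02 in MZrlig1 and 81.3% ± 0.85 in wildtype at bud (SD, n = 3 each), and 33.7% ± 0.837 in MZrlig1 and 54.2% ± 1.11 in wildtype at 5 dpf (SD, n = 3 each), given as a description. The summed EIF3J level was 110.3 FPKM in MZrlig1 and 167 FPKM in wildtype at 4-cell, and 38.5 FPKM in MZrlig1 and 59.8 FPKM in wildtype at 5 dpf (means). The mean share of eef2a.1 was highest at shield in both genotypes, at 4.17% ± 1.03 in MZrlig1 and 1.78% ± 0.0931 in wildtype (SD, n = 3 each). In MZrlig1 4-cell embryos (3.98% ± 0.962, n = 4) and wildtype bud embryos (1.63% ± 0.232, n = 3) it overlapped with that of shield.

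Other translation factors were taken from a list of 94 names, of which 87 were found, giving 87 genes with values. In heads 0 of 85 tested were called by edgeR in the averaged comparison, where 2.73% of all genes were. Of the 85, 11 had an unadjusted p under 0.05 and DESeq2 called 1, beside 2464 and 958 of all 21464 genes. Their median log2 fold change was -0.052, beside -0.014 for all genes. edgeR also called 0 of 85 at bud, where 0.814% of all genes were called, and at 5 dpf, where 1.02% were. At bud 5 genes of the list had an unadjusted p under 0.05 and DESeq2 called 2, and at 5 dpf these counts were 3 and 0. Over all genes they were 1974 and 633 of 15846 at bud, and 2092 and 383 of 20465 at 5 dpf. At 4-cell 2 of 81 were called, beside the 3.16% of all genes, both lower in MZrlig1. They were DPH1, an enzyme of diphthamide synthesis (-1.63 ± 0.25, adjusted p = 0.00421), and EIF6, which keeps the ribosomal subunits apart (-1.15 ± 0.25, adjusted p = 0.0301). At sphere 34 of 84 were called, 27 higher and 7 lower, beside the 36.0% of all genes. The highest there were eif1axa (0.89 ± 0.11, adjusted p = 7.33e-05) and eif4a1b (0.87 ± 0.082, adjusted p = 1.17e-05), a scanning factor and an RNA helicase, and the lowest again DPH1 (-1.54 ± 0.15, adjusted p = 1.19e-05) and EIF6 (-1.19 ± 0.089, adjusted p = 2.25e-06). At shield 2 of 84 were called, beside the 3.84% of all genes: EIF6 (-0.66 ± 0.16, adjusted p = 0.0474) and EIF4G2 (-0.55 ± 0.11, adjusted p = 0.0301), both lower.

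The list held 14 genes of other eIF3 subunits, some of them paralogs of the same subunit. From sphere to shield 9 of the 14 rose and 0 fell in MZrlig1, where 27.3% of all genes rose. In wildtype 11 rose and 0 fell, where 32.1% of all genes rose. EIF3J ENSDARG00000012603 fell at this step. The median log2 fold change of the 14 genes was 1.22 in MZrlig1 and 1.31 in wildtype, beside 0.13 in MZrlig1 and 0.33 in wildtype for all genes. Of the 7 diphthamide genes, which act on eEF2, 1 rose and 4 fell at this step in MZrlig1, where 22.6% of all genes fell, and 0 rose and 5 fell in wildtype, where 24.7% did. From shield to bud 5 of the 7 rose and 0 fell in MZrlig1, where 23.4% of all genes rose, and 6 rose and 0 fell in wildtype, where 27.4% did.

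Over the whole list, the largest called rise from sphere to shield with counts at both stages was EIF1AD at 2.84 ± 0.36, adjusted p = 3.62e-06 in MZrlig1, and the largest in wildtype was EIF4A2, an RNA helicase, at 3.47 ± 0.21, adjusted p = 1.07e-10, followed by EIF1AD at 2.93 ± 0.35, adjusted p = 7.94e-07. The largest falls there were DNAJC24, of diphthamide synthesis, at -2.69 ± 0.39, adjusted p = 1.50e-05 and PABPC1L at -2.58 ± 0.38, adjusted p = 1.97e-05 in MZrlig1, and DPH1 at -3.02 ± 0.28, adjusted p = 2.26e-08 and gspt1, a termination factor, at -2.65 ± 0.23, adjusted p = 9.40e-09 in wildtype. EEF2K, the kinase that inhibits eEF2, had the largest rise of the list from shield to bud, 3.64 ± 0.38, adjusted p = 4.72e-07 in MZrlig1 and 3.27 ± 0.28, adjusted p = 1.42e-08 in wildtype. EEF1D, part of the exchange factor that recharges eEF1A with GTP, came next, at 2.85 ± 0.26, adjusted p = 1.19e-07 in MZrlig1 and 2.52 ± 0.30, adjusted p = 9.30e-07 in wildtype. PABPC1L and EIF4E1B, known as egg and early embryo forms of the poly(A) and cap binding proteins, had the largest falls at shield to bud. PABPC1L was at -4.04 ± 0.42, adjusted p = 4.29e-07 in MZrlig1 and -4.35 ± 0.21, adjusted p = 8.15e-12 in wildtype, and EIF4E1B at -3.38 ± 0.35, adjusted p = 4.73e-07 in MZrlig1 and -2.40 ± 0.28, adjusted p = 8.03e-07 in wildtype. At bud to 1 dpf PABPC4, a poly(A) binding protein, had the largest rise, at 6.57 ± 0.48, adjusted p = 3.95e-08 in MZrlig1 and 6.69 ± 0.91, adjusted p = 4.11e-05 in wildtype, and etf1a, a termination factor, came next, at 3.53 ± 0.71, adjusted p = 7.28e-04 in MZrlig1 and 2.32 ± 0.85, adjusted p = 0.0256 in wildtype. EIF4E1B fell further there, at -4.30 ± 0.55, adjusted p = 4.28e-06 in MZrlig1 and -7.09 ± 0.48, adjusted p = 5.07e-10 in wildtype, and PABPC1L did so in wildtype, at -3.22 ± 0.32, adjusted p = 7.68e-08. At 1 dpf to 5 dpf EIF3B had the largest called rise, and next came eef1da at 1.69 ± 0.30, adjusted p = 1.25e-04 in MZrlig1 and EIF3H, an eIF3 subunit, at 1.35 ± 0.31, adjusted p = 8.47e-04 in wildtype. The largest falls with more counts were eif4a1a at -2.18 ± 0.15, adjusted p = 5.34e-09 and eif4e1c at -1.91 ± 0.16, adjusted p = 5.26e-08 in MZrlig1, and EIF5A2 at -2.07 ± 0.16, adjusted p = 2.95e-09 in wildtype. No fold is given for EIF3B in this last step, PABPC4 from sphere to shield in MZrlig1, or PABPC1L from bud to 1 dpf in MZrlig1 and from 1 dpf to 5 dpf in wildtype, which were called with 3 or fewer counts over 1 of the groups. In the last step 43 of 87 genes of the list were lower and 5 higher in MZrlig1, where 22.6% of all genes were lower and 29.4% higher. In wildtype 60 were lower and 7 higher, where 29.9% of all genes were lower and 32.4% higher.

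The largest rises of the list at the first step were EIF2A, which binds initiator tRNA, at 3.91 ± 0.24, adjusted p = 4.54e-10 in MZrlig1 and 3.98 ± 0.26, adjusted p = 3.04e-10 in wildtype, with EIF2S2 (3.28 ± 0.21, adjusted p = 9.59e-10) in MZrlig1 and EIF2B5 (2.93 ± 0.19, adjusted p = 2.51e-10) in wildtype. The largest falls there were EEF1B2, part of the exchange factor of eEF1A, at -1.33 ± 0.23, adjusted p = 1.24e-04 and DPH1 at -1.25 ± 0.42, adjusted p = 0.0255 in MZrlig1, and DPH3 at -1.84 ± 0.37, adjusted p = 4.09e-04 and eif1axa at -1.78 ± 0.39, adjusted p = 0.00123 in wildtype. At this step 54 of 87 were called in MZrlig1, 42 of them higher, where 37.5% of all genes were called and 22.5% were higher. In wildtype 59 were called, 39 of them higher, where 41.0% of all genes were called and 23.7% were higher.

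Genes with a course most like that of 3 members were found by Pearson's r of group mean log2 CPM over the 12 whole-embryo groups, among 17959 genes, as a description, since groups share stage and genotype. For eef2a.1 they were cbsb (r = 0.936), si:dkeyp-121d4.3 (r = 0.935) and RECQL (r = 0.918), where the median over all genes was -0.172. For eef1a1l1 they were EWSR1 (r = 0.993), si:dkeyp-117b11.2 (r = 0.992) and FOXA2 (r = 0.991), with a median of 0.0964. For EIF3J ENSDARG00000012603 they were PSMD14 (r = 0.903), GPX8 (r = 0.9) and GINS1 (r = 0.89), with a median of -0.111.

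In the RefSeq gene table of the GRCz12tu assembly, which is not the build of the deposited files and is used for gene order only, eef2a.1 and eef2a.2 are next to each other on chromosome 22. Of the 5 annotated genes on each side of eef2a.1, 10 identifiers were tested in heads, with log2 fold changes from -0.43 to 1.04. The lowest adjusted p among them was 0.101, for rxfp3.2b (1.04, edgeR), and eef2a.2 was at 0.46, where eef2a.1 itself was called. At 4-cell 3 of 6 tested identifiers, eef2a.2 among the 6, were called, where 3.16% of all genes were: hsd11b1la (log2 fold change 3.65, adjusted p = 0.00136), rgmd (1.44, adjusted p = 0.0077) and an identifier matched to btbd2a (0.95, adjusted p = 0.0089), all higher in MZrlig1. At sphere, where 36.0% of all genes were called, hsd11b1la was again called higher (1.43, adjusted p = 0.0227, edgeR). There rgmd (-0.24) and the same btbd2a identifier (0.076) were not called. None of these 3 was called at shield, bud or 5 dpf, and in heads they were at 0.21, -0.14 and 0.15. The names of the genes next to eif3ja on chromosome 25 matched 7 tested identifiers in heads. Of these 1, duox, was called (-1.57, adjusted p = 0.00358, edgeR), where 2.73% of all genes were. At 4-cell 0 of 4 tested were called. At shield, where 3.84% of all genes were called, apba2a (-2.17, adjusted p = 0.0151), duox (-1.36, adjusted p = 0.0352) and an identifier matched to scamp5a (-2.30, adjusted p = 0.0125) were called lower in MZrlig1. The same scamp5a identifier was also lower at sphere (-1.90, adjusted p = 0.00202), where 36.0% of all genes were called. At bud, where 0.814% of all genes were called, duox was lower (-1.92, adjusted p = 0.0217) and another scamp5a identifier higher (1.24, adjusted p = 0.0348). The tables do not tie these neighbours to either EIF3J identifier. The names btbd2a and scamp5a were each matched through a synonym to more than a single identifier. Which of these lies at that place is not known, and all are counted.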

How the data were processed

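The authors deposited raw counts per gene and FPKM per gene, for whole embryos and heads in separate tables, and both were used. STAR 2.7.10b, Salmon 0.14.1, DESeq2 1.42.1 and the GRCz11 build are named in the submitters' processing notes, with no role given. How reads were counted, with which gene models and whether by strand is not given in the sources used here, so reads of near-identical copies, which eEF1A and EIF3J paralogs may be, could be split or shared, as could those of overlapping or antisense genes. The tables hold 37241 genes, 4721 of them without values.

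Counts were fitted with edgeR 4.0.16 (R 4.3.3, TMM factors, filterByExpr, robust quasi-likelihood test, Benjamini-Hochberg adjustment over all genes tested), each stage alone for genotype, all 13 head libraries in 4 groups, and each genotype's stages in 1 fit for the steps. DESeq2 1.42.0 was an alternative. The edgeR procedure was tested on simulated data. Shares were tested by exact permutation within behaviour class. FPKM were used as deposited. The share named for eif3ja was computed for ENSDARG00000012603.

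The members, the gene lists and the tests were chosen with earlier results of these data known. Named genes are all members, and of the list of other translation factors the 2 largest called rises and falls in a comparison, without a fold where 1 group held 3 or fewer counts. At low counts, counting error adds to the spread between pools, and exact intervals and floors of 3 counts cover counting error only. Replicate letters were checked for pairing by correlating deviations from group means: at bud the same letters gave r of 0.327, 0.357 and 0.486, and no other set of libraries passed 0.1 in each pair. The block at bud did not change a call of a member already called, and eef2a.2 became called (-2.11, adjusted p = 0.0439). Mature sequences, promoters and coordinates of the members were not used here.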

Additional observations from a re-analysis of the deposited data

Results flagged for a closer look

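For 9 genes in each of 4 groups of 4 pools, 36 sets of values in all, a single pool was compared with the others by the gap to its nearest neighbour. For normally distributed values this test by chance marks about 1 in 20 sets. The genes of a group share its pools. EEF1A1 ENSDARG00000039502 had 0.0403 FPKM in MZrlig1 4-cell replicate f and 0.0805 FPKM in wildtype 4-cell replicate a, with 0 in the other pools of those groups. EEF1A1 ENSDARG00000069951 had 0.136 FPKM in wildtype 4-cell replicate c, also with 0 in the others, and these are 1 to 3 counts. Where all other pools are at 0 the test marks any pool with a count, so the rate of 1 in 20 does not hold for these. The same gene was highest in MZrlig1 heads of bad responders replicate 3, at 22.7 FPKM. eef2a.2 was lowest in MZrlig1 4-cell replicate b, at 0.162 FPKM. eef2b was highest in wildtype heads of good responders replicate 1, at 2493 FPKM. EIF3J ENSDARG00000053370 was highest in wildtype 4-cell replicate f, at 47.2 FPKM.

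A pair of genes lay on opposite sides between the genotypes in separate comparisons, without overlap of the pools in either. The ratio of mean FPKM, MZrlig1 over wildtype, was 1.16 at 5 dpf and 0.358 at bud for EEF1A1 ENSDARG00000039502, and the bud ratio rests on 9 counts over 3 MZrlig1 pools and 24 over 3 wildtype pools, under the filter on low counts. For eef2b it was 1.15 in heads of good responders and 0.843 at sphere, where the fitted log2 difference was -0.063 with TMM factors and -0.25 with library totals. The difference was not tested in either case. Sphere has 2 pools a genotype and good responders 2 MZrlig1 pools, and so few pools can lie apart by chance. The share of all genes that lie on opposite sides in this way is not given here, so this shows no trait particular to these genes.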

How the results depend on the processing

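Of 731 alternative values for 61 called results, 640 kept the call, 90 lost it and 1 more lost it at a fold change of 0. Of 1584 values for 123 results not called, 1543 stayed so, 40 gained a call and 1 gained a call with the opposite sign. The value of 0 was EEF1A1 ENSDARG00000039502 from sphere to shield in wildtype without shield replicate c. Over the libraries left out in turn that step lay between 0 and 6.44. The opposite sign was eef2b from bud to 1 dpf in wildtype, 0.33 with library totals. With a replicate block, which only bud letters justify, the head share difference was 0.197 points for eef2a.1 and -14.4 points for EIF3J ENSDARG00000012603. The exact test over 5 pairs gave adjusted p = 0.0938 for each. So few pairs cannot give a call at any size of difference, so this test does not decide whether the block weakens these share results. The block gave 0 called members at 5 dpf, 1 in averaged heads, 0 in heads of good responders, 1 from 4-cell to sphere and 4 from sphere to shield in wildtype. In averaged heads the block left EIF3J ENSDARG00000012603 at -0.97, adjusted p = 0.0851, and in good responders eef2a.1 at 1.15, adjusted p = 0.0686. Leaving out 1 library gave 1 to 2 called members at shield, 0 to 2 at bud, 0 to 3 at 1 dpf and 1 to 2 at 5 dpf, 0 to 1 in good and 1 to 2 in bad responder heads. In the steps it gave 1 to 3 from 4-cell to sphere and 4 to 7 from sphere to shield in wildtype, and 0 to 3 from shield to bud in MZrlig1. A fit of all whole embryos without MZrlig1 1 dpf replicate a called 3 members at 1 dpf. In good responder heads library totals gave 2, DESeq2 2 and only the groups compared 0, and in bad responder heads each of these 3 settings gave 2. With MZrlig1 1 dpf replicate a included, 3 members were called from sphere to shield and 0 from shield to bud in MZrlig1. That last step had 1 with DESeq2 size factors, 5 with library totals, 1 with no filter, 1 with the DESeq2 test and 1 with only the groups compared, and bud to 1 dpf had 5 with library totals in MZrlig1. Library totals moved the median of all genes by 0.43, -0.51 and 0.48 (log2) at 4-cell to sphere, sphere to shield and bud to 1 dpf in wildtype, so the size of step changes depends on the scaling. The cause of these changes was not tested. The share of all genes called under each alternative is not given here, so these counts do not show a change particular to the members.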
